A study of Mus musculus with 7 samples.

Results

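The cytosolic glutathione S-transferases of the alpha, mu and pi classes were examined as 10 genes chosen by name, *Gsta1*, *Gsta2*, *Gsta3*, *Gsta4*, *Gstm1*, *Gstm2*, *Gstm3*, *Gstm4*, *Gstp1* and *Gstp2*, among 35715 gene names on the array. Probes of that name were found for 9 of the 10 genes, and *Gsta1* had none. The 9 genes were represented by 17 probes. All 17 were well above background on all 7 arrays, so none of them entered the comparison through only the genotype in which it was brighter. Expression was measured in whole liver RNA of untreated C57BL/6J mice at the age of 4 weeks, kept free of pathogens, with 1 array of a single dye per animal. Both genotypes carry floxed *Rbpj* alleles. The 4 Rbpj+/+ mice (named Rbpj +/+_1155, then Rbpj +/+_1156, followed by Rbpj +/+_1024 and, last, Rbpj +/+_991) lack the AlfpCre transgene and had no cholestasis, whereas the 3 Rbpj-/- mice (Rbpj -/-_N3, Rbpj -/-_N5 and Rbpj -/-_2866) carry AlfpCre, which deletes *Rbpj* in the epithelial lineage of the liver, and were cholestatic. Whole liver still contains stellate, endothelial and blood-derived cells in which this Cre is not active, and the sex of the animals is not given. In such bulk RNA, fewer cells of a type and less RNA per cell cannot be told apart.

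Glutathione S-transferases couple the tripeptide glutathione to reactive electrophiles, which makes them soluble and ready for export from the cell. Hepatocytes contain large amounts of these enzymes. Alpha class enzymes also act as peroxidases for lipid hydroperoxides and as binding proteins for bilirubin and bile acids, and GSTA4 prefers 4-hydroxynonenal, an aldehyde formed when lipids are oxidised. In mouse liver *Gsta3* is the constitutive alpha gene, whereas *Gsta1* and *Gsta2* are known as inducible genes. Among the mu class genes *Gstm1* is the major liver form. The pi class genes *Gstp1* and *Gstp2* are known for higher levels in male than in female mouse liver. Many of these genes respond to the transcription factor NRF2 (*Nfe2l2*) and to the xenobiotic receptors CAR (*Nr1i3*) and PXR (*Nr1i2*).

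The genes lie in clusters, and near-identical neighbours limit what a probe of 60 bases can tell apart. In the RefSeq annotation *Gsta4*, *Gsta1*, the predicted genes *Gm3776* and *Gm10639*, and *Gsta2* lie in this order on chromosome 9, with other genes in between, *Gsta3* lies on chromosome 1, the mu class genes form a cluster on chromosome 3, and *Gstp1* and *Gstp2* are neighbours on chromosome 19. The pi pair shows the problem in letters. The *Gstp1* probe (A_51_P374464, from transcript position 349) and the *Gstp2* probe (A_55_P2008704, from position 331) lie in the coding part and overlap by 35 bases, of which 30 are identical. Capitals mark the 5 bases of the overlap that differ.
Gstp1 probe: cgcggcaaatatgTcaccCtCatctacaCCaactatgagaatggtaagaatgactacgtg
Gstp2 probe: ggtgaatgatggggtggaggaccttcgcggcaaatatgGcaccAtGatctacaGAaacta
The remaining *Gstp1* probe (A_55_P2031668, position 117) is assigned by the array's own annotation to transcripts of both pi genes, so its signal belongs to either of them.
Gstp1 and Gstp2 probe: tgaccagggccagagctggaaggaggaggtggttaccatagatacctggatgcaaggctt
The *Gsta4* probe (A_51_P112223, position 194) and the *Gstm3* probe from position 337 (A_55_P2065231) are shown as coding probes of the genes that changed in the other direction. No other probe of the array shared 20 or more consecutive bases with them.
Gsta4 probe: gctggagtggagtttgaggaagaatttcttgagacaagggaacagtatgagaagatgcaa
Gstm3 probe: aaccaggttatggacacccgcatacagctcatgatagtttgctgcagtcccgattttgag

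The members were called in both directions. *Gsta2*, *Gsta4*, *Gstm3* and 1 of 3 *Gstm2* probes were higher in Rbpj-/- liver, *Gstp1* and *Gstp2* were lower, and *Gsta3*, *Gstm1* and *Gstm4* did not pass the test. In numbers, 5 of the 17 probes were called higher and 4 lower with limma at an adjusted p below 0.1. This threshold was adjusted by Benjamini-Hochberg over 24548 tested probes, of which 14.3% were called higher and 19.2% lower (33.6% in both directions). In a fit of only the 21252 probes well above background on all 7 arrays, 13.4% were called higher and 22.8% lower. Of the 17 member probes, 6 were higher and 4 lower in that fit. The genotypes did not overlap for 7 of the 17 probes, 4 of them higher and 3 lower, against 35.6% of all tested probes. The median log2 difference, given throughout as Rbpj-/- minus Rbpj+/+, was 0.19 over the 17 probes and -0.12 over all tested probes. All values below are log2 intensities after subtraction of the 75th percentile of the array, so a value of 0 is the signal at that percentile, and levels of different probes are not comparable.

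**Figure D1:**
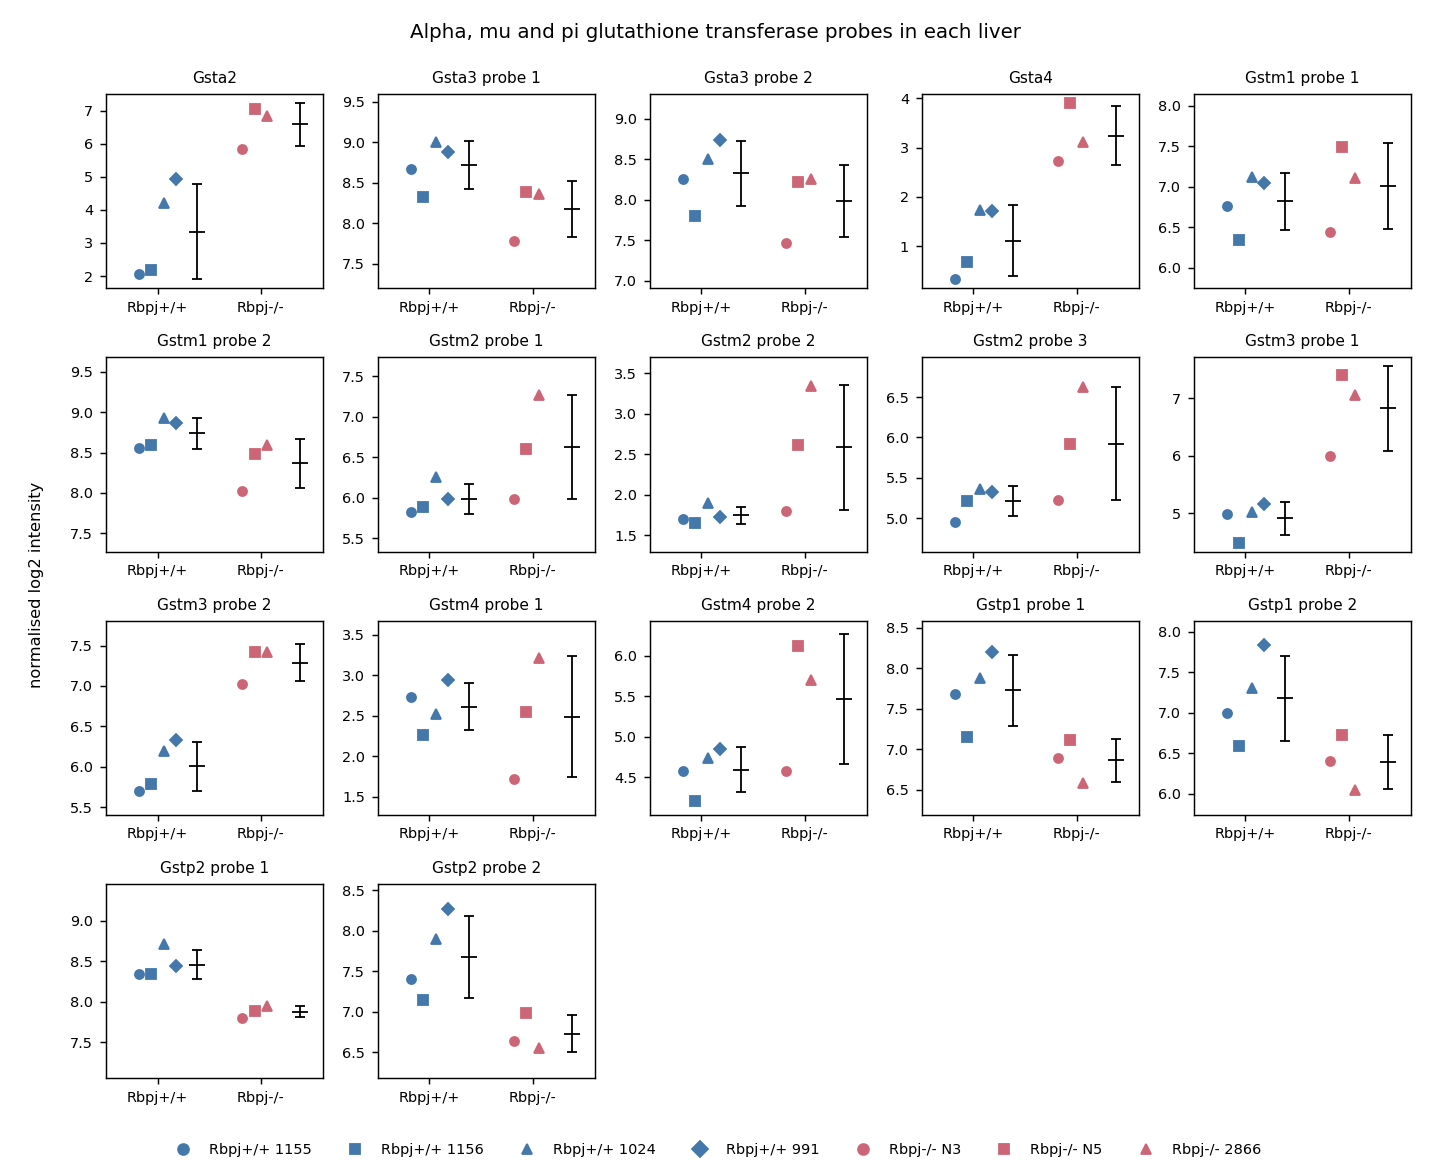
Normalised log2 intensity (y axis) of each of the 17 probes, 1 panel per probe, in the 4 Rbpj+/+ livers (blue) and the 3 Rbpj-/- livers (red); the shape of a point stands for the animal, and the black bar gives the mean and SD. The genotypes do not overlap for Gsta2, Gsta4, both Gstm3 probes, Gstp1 probe 1 and both Gstp2 probes, and each panel has its own y range.

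*Gsta2* showed the largest difference of the members. Its probe (A_55_P2170454, position 766 of the transcript, chromosome 9) read 2.05, 2.19, 4.21 and 4.92 in the Rbpj+/+ livers and 5.85, 7.06 and 6.85 in the Rbpj-/- livers, in the order in which the animals were named above. The lowest Rbpj-/- liver lay above the highest Rbpj+/+ liver, and the Rbpj+/+ livers lay far apart from each other. *Gsta2* was higher by 3.25 on the log2 scale (SE 0.70, 95% interval 1.66 to 4.84), a 9.49-fold difference with an adjusted p of 0.0132 in limma. The spread among the Rbpj+/+ animals, an SD of 1.45, was larger than that of 99.2% of the tested probes, whose median SD was 0.31. Without the filter for dim probes the adjusted p rose to 0.111. With the signal of *Xist*, the RNA of the inactive X chromosome, as a covariate the difference was 2.23, with an adjusted p of 0.0999. *Xist* was well above background in Rbpj +/+_1155 alone, so this fit does not bear on sex.

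*Gsta4*, which encodes the enzyme for 4-hydroxynonenal, followed the same pattern of animals. The mean of its spots was 0.33, 0.68, 1.73 and 1.71 in the Rbpj+/+ animals and 2.72, 3.91 and 3.105 in the Rbpj-/- animals, in the same order. Again Rbpj +/+_1024 and Rbpj +/+_991 were the highest of the Rbpj+/+ group, and Rbpj -/-_N5 the highest of the Rbpj-/- group. *Gsta4* was higher by 2.13 (SE 0.42, adjusted p = 0.0093 in limma), a 4.39-fold difference, and it passed the test under every alternative run, with adjusted p-values up to 0.0922. This probe is printed 10 times on each array. Over the 8 to 10 spots that remained after quality filtering, the SD within an array was between 0.07 and 0.24, compared with 0.72 between the Rbpj+/+ animals (n = 4) and 0.60 between the Rbpj-/- animals (n = 3).

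The predicted genes between *Gsta1* and *Gsta2* were read as well, because the array holds no probe named *Gsta1*. The *Gm3776* probe (A_55_P2032946), whose annotation also lists the *Gsta1* transcript, read 1.24, 1.36, 2.45 and 3.73 in Rbpj+/+ and 5.49, 7.86 and 6.76 in Rbpj-/- liver. This was a rise of 4.50 (SE 0.69, adjusted p = 0.0036 in limma), or 22.7-fold, which may come from either transcript. A second spot set with the identical 60 bases, designed for an intergenic RNA, gave a log2 difference of 4.50 too. The 2 *Gm10639* probes were higher by 3.55 (SE 0.60) and 3.66 (SE 0.66), with adjusted p-values of 0.00534 and 0.00662. These probes are not independent of *Gsta2*, as the *Gsta2* probe matched 46 of 50 overlapping bases of the *Gm3776* probe and 53 of 60 bases of a *Gm10639* probe. The annotation of the *Gm10639* probe that was higher by 3.55 also lists the *Gsta2* transcript, so its signal may come from either gene. On each of the 5 probes of the chromosome 9 cluster, Rbpj +/+_1024 and Rbpj +/+_991 exceeded Rbpj +/+_1155 and Rbpj +/+_1156, and Rbpj -/-_N5 exceeded Rbpj -/-_2866 and Rbpj -/-_N3.

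**Figure D2:**
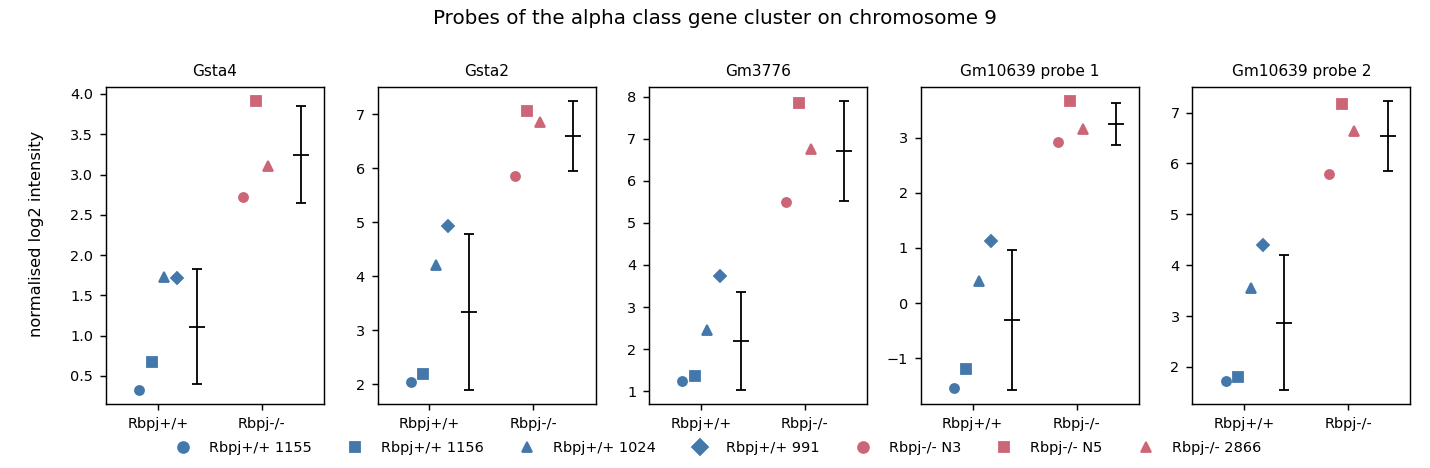
Normalised log2 intensity (y axis) of the probes for Gsta4, Gsta2, Gm3776 and Gm10639, neighbours on chromosome 9, in the 4 Rbpj+/+ livers (blue) and the 3 Rbpj-/- livers (red), with the animal given by the shape and the mean and SD by the black bar. In each panel the Rbpj-/- livers lie above all Rbpj+/+ livers, and Rbpj +/+_1024 and Rbpj +/+_991 lie above Rbpj +/+_1155 and Rbpj +/+_1156.

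*Gsta3*, the constitutive alpha gene, did not share this rise. Its probe at position 1002 (A_51_P503625) read 8.67, 8.33, 9.004 and 8.88 in Rbpj+/+ and 7.77, 8.39 and 8.36 in Rbpj-/- liver. The genotypes overlapped through Rbpj +/+_1156, and Rbpj -/-_N3 was the lowest. The difference of -0.55 (95% interval -1.10 to 0.01, adjusted p = 0.134 in limma) and that of -0.34 for the probe at position 901 (A_55_P1961423; interval -1.001 to 0.31, adjusted p = 0.41) did not pass the test. The second of these turned to 0.021 with quantile normalization and to 0.026 in the series matrix. The intervals leave room for a fall to below the level of Rbpj+/+ liver but not for a rise of the size seen in *Gsta2*.

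Among the mu class genes, *Gstm3* rose on both probes. The probe at position 337 read 4.99, 4.49, 5.02 and 5.16 in Rbpj+/+ and 6.00, 7.40 and 7.06 in Rbpj-/- liver. The probe at position 1141 (A_55_P2102060) read 5.71, 5.79, 6.20 and 6.33 against 7.02, 7.41 and 7.42. No Rbpj-/- liver overlapped with a Rbpj+/+ liver on either probe. The differences were 1.91 (SE 0.34, adjusted p = 0.00619 in limma) and 1.28 (SE 0.23, adjusted p = 0.00636), or 3.75-fold and 2.43-fold. Both passed under every alternative run. The array design places the first probe on chromosome 10 rather than in the cluster on chromosome 3, so it may also read a copy of the sequence elsewhere in the genome.

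*Gstm2* rose less and mainly on some of the Rbpj-/- arrays. The probe at position 659 (A_55_P1966438) read 1.70, 1.66, 1.90 and 1.73 in Rbpj+/+ and 1.80, 2.62 and 3.34 in Rbpj-/- liver. The Rbpj+/+ values lay close together, Rbpj -/-_N3 fell among them, and Rbpj -/-_N5 and Rbpj -/-_2866 lay above them. The difference was 0.84 (SE 0.33, adjusted p = 0.0935 in limma), which no longer passed when any of the 4 Rbpj+/+ animals, Rbpj -/-_N5 or Rbpj -/-_2866 was left out (adjusted p = 0.139 to 0.276). The array design places the probe at position 932 on chromosome 18 rather than in the mu class cluster, so it may also read a copy elsewhere. The probes at positions 985 and 932 showed the same order of Rbpj-/- animals, with differences of 0.64 (adjusted p = 0.149) and 0.71 (adjusted p = 0.13). Without Rbpj -/-_N3 they were 0.95 (adjusted p = 0.0525) and 1.06 (adjusted p = 0.041). The array of Rbpj -/-_N3 had a median intensity before scaling of 29.6, against 7.75 for Rbpj -/-_N5 and 7.37 for Rbpj -/-_2866. With 1 array per animal, animal and array cannot be told apart.

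*Gstm1* and *Gstm4* gave different answers on different probes. For *Gstm1*, the major mu form of liver, the probe at position 807 (A_55_P1966432) differed by 0.19 (95% interval -0.48 to 0.86) and the probe at position 1225 (A_55_P2062190) by -0.37 (interval -0.85 to 0.11). Neither passed, with adjusted p-values of 0.666 and 0.235 in limma. The second probe is placed by the array design on chromosome 5, and it matched 25 of 27 overlapping bases of a *Gstm3* probe. For *Gstm4*, the probe at position 1133 (A_51_P327585) differed by -0.12 (interval -0.90 to 0.65). The coding probe at position 326 (A_65_P02177) read 4.58, 4.20, 4.73 and 4.84 in Rbpj+/+ and 4.57, 6.11 and 5.70 in Rbpj-/- liver. In Rbpj -/-_N3 this probe stayed within the Rbpj+/+ range, while Rbpj -/-_N5 and Rbpj -/-_2866 were higher. Its difference of 0.87 missed the threshold (adjusted p = 0.106) and passed with quantile normalization (1.04, adjusted p = 0.0532) and without Rbpj -/-_N3 (1.32, adjusted p = 0.0202).

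Both pi class genes were lower in Rbpj-/- liver. The *Gstp1* probe at position 349 read 7.68, 7.15, 7.89 and 8.20 in Rbpj+/+ and 6.90, 7.11 and 6.59 in Rbpj-/- liver. The *Gstp2* probe at position 331 read 7.40, 7.14, 7.90 and 8.26 against 6.64, 6.98 and 6.55. On both, the lowest Rbpj+/+ animal was Rbpj +/+_1156 and the gap to Rbpj -/-_N5 was small. The log2 differences were -0.87 (SE 0.27, adjusted p = 0.0487 in limma) for *Gstp1* and -0.95 (SE 0.29, adjusted p = 0.0438) for *Gstp2*. Expressed as folds, the 2 probes were 1.82-fold and 1.93-fold higher in Rbpj+/+ liver.

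The other pi probes were of the same sign. The probe shared by the pi genes read 6.997, 6.59, 7.31 and 7.83 in Rbpj+/+ and 6.41, 6.72 and 6.05 in Rbpj-/- liver, and the genotypes overlapped through Rbpj +/+_1156 and Rbpj -/-_N5. Its difference was -0.79 (SE 0.31, adjusted p = 0.0957 in limma). The second *Gstp2* probe (A_55_P1957038, position 697) read 8.34, 8.34, 8.71 and 8.45 against 7.81, 7.89 and 7.94. This probe varied least between the animals, with SDs of 0.17 and 0.07, and differed by -0.58 (SE 0.18, adjusted p = 0.0483). The sign was the same under every alternative run, but the call was not. With quantile normalization only the *Gstp2* probe at position 331 passed, and without Rbpj +/+_1024, without Rbpj -/-_N3 or without the filter for dim probes none of the 4 pi probes did. Without Rbpj +/+_991 or without Rbpj -/-_2866 1 of them passed, and without Rbpj -/-_N5 2 passed. The third pi gene, listed on the array as *BC021614* and in RefSeq as *Gstp3*, went the other way. It read 0.95, 0.20, 0.97 and 0.97 in Rbpj+/+ and 1.26, 2.08 and 2.18 in Rbpj-/- liver, a rise of 1.07 (SE 0.30, adjusted p = 0.0329 in limma). This call was lost without Rbpj -/-_N5 (adjusted p = 0.121), without Rbpj -/-_2866 (0.108), without the filter for dim probes (0.194) and with the *Xist* covariate (0.109).

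**Figure D3:**
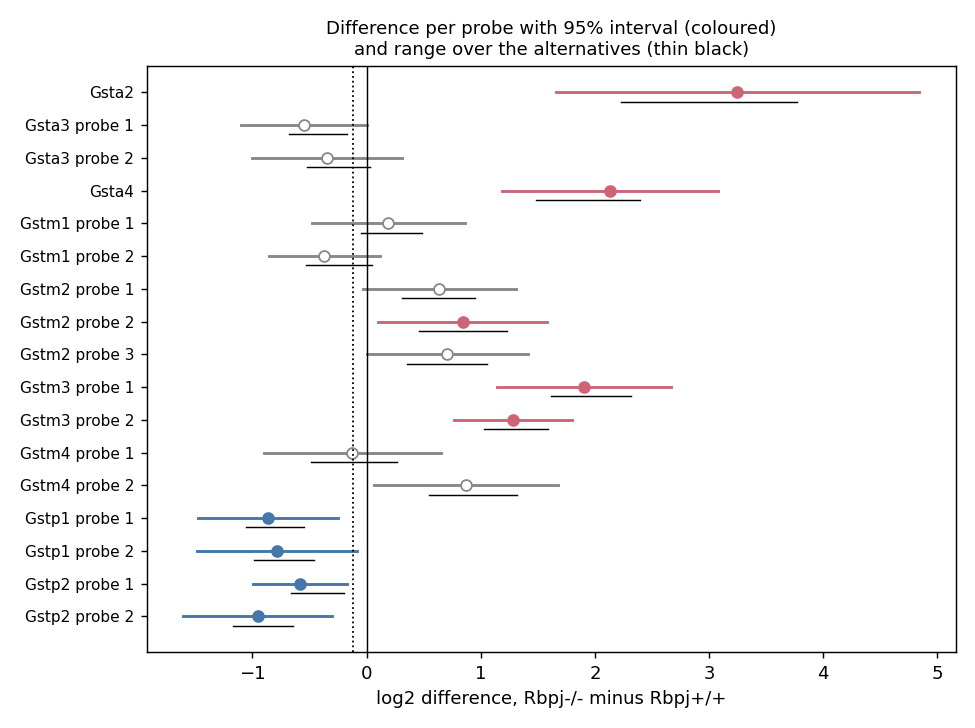
Log2 difference, Rbpj-/- minus Rbpj+/+ (x axis), of each of the 17 probes (y axis): the point is the estimate, the coloured line its 95% interval in limma and the thin black line the range over the alternative settings. Filled red and blue points were called higher and lower at an adjusted p below 0.1, open grey points were not called, and the dotted line at -0.12 is the median of all tested probes.

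With 4 against 3 animals there are 35 ways to assign the genotypes, so the smallest p of an exact two-sided permutation test is 0.0571, and it cannot pass 0.05. The 7 probes whose genotypes did not overlap (*Gsta2*, *Gsta4*, *Gstm3* on both probes, *Gstp1* at position 349 and *Gstp2* on both) reached that smallest value. The 7 arrays shared 1 slide, with the Rbpj+/+ arrays in row 1 and the Rbpj-/- arrays in row 2, so row and genotype cannot be told apart. *Rbpj* itself was lower in Rbpj-/- liver on the probe near the end of its transcript (A_66_P139267, position 5408), with values of 0.97, 0.29, 0.33 and 0.81 against -0.35, -0.78 and -0.48 (difference -1.13, adjusted p = 0.0115 in limma). The other *Rbpj* probe (A_55_P2022524, position 1682), which the array design places on chromosome 6, read -2.74, -0.73, -1.68 and -2.01 against -2.22, -3.53 and -4.51. Its genotypes overlapped through Rbpj +/+_1155 and Rbpj -/-_N3 (difference -1.63, SE 0.58, adjusted p = 0.0723 in limma). This call was lost without Rbpj +/+_1156, Rbpj +/+_1024, Rbpj +/+_991, Rbpj -/-_N5 or Rbpj -/-_2866 (adjusted p = 0.107 to 0.226). Whether either probe lies within the deleted part is not given in the sources used here.

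The sequence upstream of the start was available from RefSeq (GRCm38.p6) for 9 of the 10 genes, from 250 bases before to 50 bases after the start, and none was found for *Gsta4*. These windows were searched on both strands for the letters of the antioxidant response element bound by NRF2 (TGACNNNGC), of the AP-1 site (TGANTCA) and of the xenobiotic response element bound by the aryl hydrocarbon receptor (GCGTG). The AP-1 letters were found in *Gstp1* and *Gstp2* alone among the members, whereas 7.81% of 32851 mouse promoters hold them. The stretch from 120 to 51 bases before the start is shown for these neighbours, which moved together, with the AP-1 letters in capitals. The coordinates are chr19:4037963-4038032 for *Gstp1* and chr19:4042272-4042341 for *Gstp2*, both on the minus strand.
Gstp1 promoter: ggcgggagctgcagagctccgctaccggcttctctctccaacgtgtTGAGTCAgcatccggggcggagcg
Gstp2 promoter: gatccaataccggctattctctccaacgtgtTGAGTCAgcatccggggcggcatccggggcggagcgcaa
The antioxidant response element letters were found in *Gsta3* alone (12.4% of all promoters) and those of the xenobiotic response element in 4 members, *Gsta1*, *Gsta2*, *Gstm1* and *Gstp1* (32.4% of all promoters). In both pi stretches the AP-1 letters are followed by gc. They differ there from TGACNNNGC only by a G in place of the C, and such near matches were not counted. Windows of this length do not reach further upstream, and a match of letters is not a site of binding.

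The remaining glutathione transferases were read by the brightest tested probe of each gene, as were the other lists of the pathway. Over all 18771 tested genes read in this way, 14.6% were called higher and 19.6% lower, and the median log2 difference was -0.13. Of 14 tested genes among the theta, zeta, omega, kappa, microsomal and further mu forms, 5 were higher and 3 lower, with a median of 0.33. *Mgst2*, a microsomal enzyme that also forms leukotriene C4, rose by 3.56 (SE 0.68, adjusted p = 0.00831 in limma). Its probe was well above background in 3 of 4 Rbpj+/+ livers, and with normexp background correction its difference was 1.57. *Mgst3* rose by 1.71 and *Gstt3* by 1.77. The call of *Gstt3* was lost without Rbpj -/-_N5 (adjusted p = 0.101) or Rbpj -/-_2866 (adjusted p = 0.121). *Gstcd* rose by 1.13 near the detection limit, as it was well above background in 1 of 4 Rbpj+/+ livers, and turned to -0.065 with normexp background correction.

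Genes that make and recycle glutathione were called in both directions, 6 of 21 higher and 6 lower, with a median of 0.01. *Gclc*, the catalytic subunit of the rate-limiting enzyme of glutathione synthesis, read 6.41, 6.33, 6.49 and 6.70 in Rbpj+/+ and 4.42, 5.56 and 5.65 in Rbpj-/- liver. All Rbpj-/- animals lay below the Rbpj+/+ animals, Rbpj -/-_N3 lowest (difference -1.27, SE 0.30, adjusted p = 0.0194 in limma). Its modifier subunit *Gclm* differed by 0.30 and did not pass (adjusted p = 0.474). *Cbs*, which feeds cysteine into this synthesis through transsulfuration, fell by 1.04, and *Hagh*, a glyoxalase that releases glutathione, fell by 1.14. *Gpx3*, a secreted glutathione peroxidase, rose by 3.46 (adjusted p = 0.000579).

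Further along the route, 3 of 15 genes of conjugate export and mercapturate formation were higher and 3 lower (median 0.03). The export pumps of the basolateral membrane *Abcc4* and *Abcc1* differed by 2.11 (adjusted p = 0.00297 in limma) and 2.02 (adjusted p = 0.00838). *Abcc1* was well above background in 1 of 4 Rbpj+/+ livers, and with normexp background correction its difference was 0.28 and did not pass (adjusted p = 0.165). *Abcc4* was at 1.11 with normexp and kept its call. *Abcc5* rose by 1.18. *Nat8*, which acetylates cysteine conjugates to mercapturates, read 1.48, 1.86, 2.93 and 4.66 in Rbpj+/+ and -0.65, -0.55 and 1.02 in Rbpj-/- liver, and fell by 2.79 (adjusted p = 0.0273, and 0.102 without Rbpj -/-_N5).

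The regulators known for these genes were measured too. *Nfe2l2* differed by 0.73 and just missed the threshold (SE 0.29, adjusted p = 0.101 in limma), and its inhibitor *Keap1* differed by 0.15 (adjusted p = 0.619). Under several alternatives *Nfe2l2* passed, among them normexp (0.89, adjusted p = 0.0445) and quantile normalization (0.83, adjusted p = 0.0878). It also passed without Rbpj +/+_1155 (0.90, adjusted p = 0.0555), but not without any other single animal. *Keap1* passed with normexp alone (0.42, adjusted p = 0.0869). Of the 24 genes of the NRF2 pathway, 6 were higher and 5 lower, with a median of 0.24. The quinone reductase *Nqo1* rose by 1.81, the carbonyl reductase *Cbr3* by 2.20 and the small Maf factor *Maff* by 1.47, while malic enzyme *Me1* fell by 2.07. *Maff* was no longer called without Rbpj +/+_1024, Rbpj -/-_N3 or Rbpj -/-_N5 (adjusted p = 0.103 to 0.148). *Nqo1* read -0.51, -1.74, -1.29 and -0.74 in Rbpj+/+ and -0.19, 1.72 and 0.69 in Rbpj-/- liver. Of the Rbpj-/- livers, Rbpj -/-_N5 had the highest *Nqo1*, *Cbr3* and *Maff* signal, as it had for the alpha class cluster. In contrast, *Me1* was highest in Rbpj -/-_2866, at 4.65 against 1.94 in Rbpj -/-_N3 and 3.18 in Rbpj -/-_N5. Among the Rbpj+/+ livers *Nqo1* was highest in Rbpj +/+_1155, unlike the cluster. A link between these genes and the cluster was not tested.

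Among 11 xenobiotic-sensing receptors and partners, 1 was higher and 4 lower (median -0.40). *Ahr*, the aryl hydrocarbon receptor, rose by 0.80 (adjusted p = 0.0508 in limma). The bile acid receptor FXR, *Nr1h4*, fell by 1.52 (adjusted p = 0.00321), the fatty acid receptor *Ppara* fell by 1.40 (adjusted p = 0.00962) and the hepatocyte factor *Cebpa* fell by 1.01 (adjusted p = 0.0877). The calls of *Ahr* and *Cebpa* were lost when certain single animals were left out, that of *Ahr* without Rbpj +/+_1024, Rbpj +/+_991 or Rbpj -/-_N5 (adjusted p = 0.108 to 0.187) and that of *Cebpa* without Rbpj +/+_1155, Rbpj +/+_1024, Rbpj +/+_991, Rbpj -/-_N3 or Rbpj -/-_N5 (adjusted p = 0.146 to 0.287). The receptors named above for these transferases did not pass, with differences of 0.01 for *Nr1i2* (adjusted p = 0.985) and -0.47 for *Nr1i3* (adjusted p = 0.191).

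**Figure D4:**
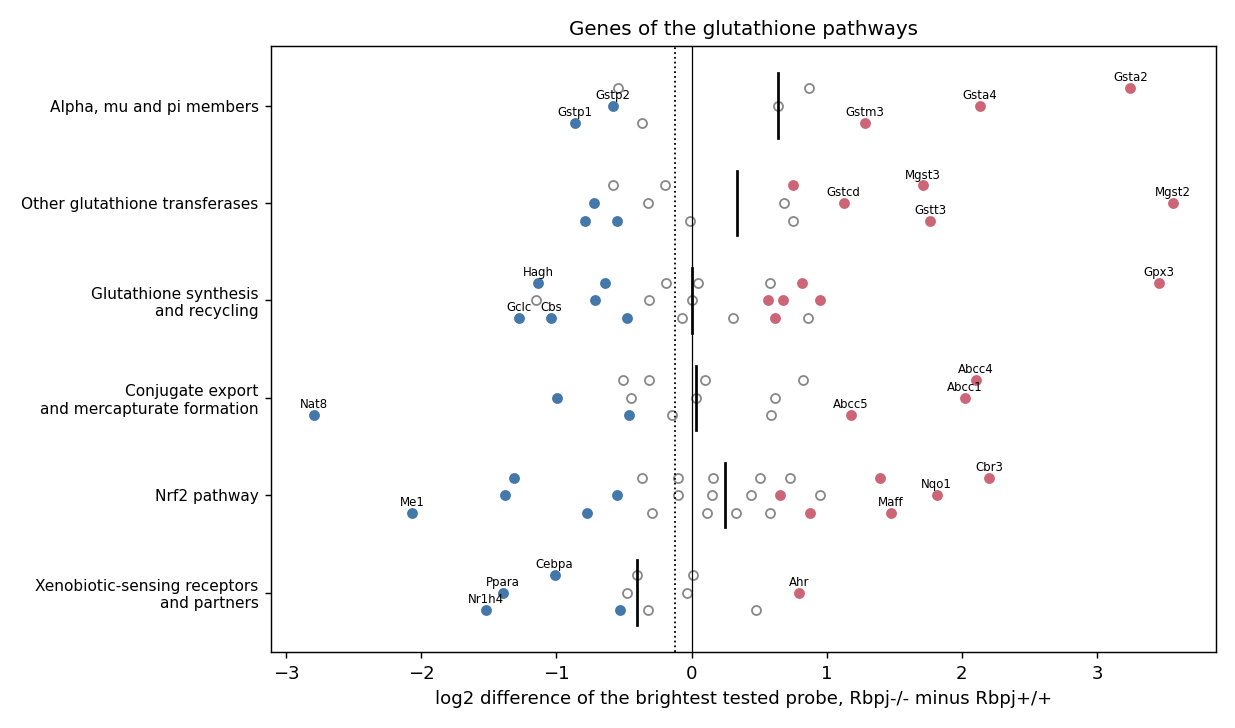
Log2 difference, Rbpj-/- minus Rbpj+/+ (x axis), of the brightest tested probe of each gene in 6 lists (y axis); filled red and blue points were called higher and lower, open grey points were not called, the black bar is the median of the list and the dotted line at -0.13 the median of all tested genes. Called genes of each list spread to both sides of 0, from -2.79 for Nat8 to 3.56 for Mgst2.

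Cell type and sex markers moved between the genotypes as well. Hepatocyte markers were present at high signal in every liver, and 7 of 12 were lower and none higher, with a signal summed over the list, in multiples of the 75th percentile of the array, of 4930 to 7500 in Rbpj+/+ and 3530 to 4320 in Rbpj-/- liver. This count depended on the scaling, with 3 lower and 2 higher after quantile normalization and 1 lower without the filter for dim probes. Of 12 macrophage markers, 10 were higher and none lower (summed signal 93.4 to 121 against 320 to 437). Cholangiocyte markers were mixed, with 4 of 9 higher and 1 lower (27.7 to 37.7 against 22.9 to 24.4). The lower gene, *Slc4a2*, made up most of that sum in Rbpj+/+ liver, and without it the other 8 genes summed to 4.24 to 5.22 in Rbpj+/+ and 11.8 to 14.5 in Rbpj-/- liver. The markers *Epcam* and *Cldn4* were not tested because they were not well above background in all arrays of a genotype. Markers of stellate cells and fibroblasts were mostly higher (8 of 12, with 1 lower). Of 10 endothelial markers, 4 were higher and 1 lower, and 6 of 8 lymphocyte markers were lower and none higher. Of 7 neutrophil markers, 4 were higher and 1 lower, but their summed signal was 185 to 277 in Rbpj+/+ and 161 to 196 in Rbpj-/- liver. The median difference over all 7 genes was 2.01, and 0.16 with normexp. Only 3 of the 7 were well above background on all arrays. In the fit limited to such probes, 2 of these 3 were higher and 1 lower, with a median of 2.46. Beside the lower pi class genes stand the genes known for male-biased expression in mouse liver, of which all 14 tested were lower. Of 9 female-biased genes that were tested, 3 were higher and none lower, with a median difference of -0.06. With normexp 1 of the 9 was higher. In the fit limited to probes well above background on all 7 arrays, 6 female-biased genes remained and none was called. All 9 male-biased genes that remained in that fit were lower. The Y-linked *Ddx3y* and *Eif2s3y* were well above background in all 7 livers and differed by 0.07 (adjusted p = 0.827 in limma) and -0.18 (adjusted p = 0.585), with changes of sign under some alternatives. *Xist* was well above background in 1 of 7 livers, Rbpj +/+_1155. With its signal as a covariate *Gm3776* differed by 3.58 and *Gsta4* by 1.49, both still called, whereas the 2 *Gstp1* probes (adjusted p = 0.147 and 0.171), the *Gstp2* probe at position 697 (adjusted p = 0.13) and the *Gstm2* probe at position 659 (adjusted p = 0.306) lost the call. That signal was mostly background, and it was lower in every Rbpj-/- liver than in every Rbpj+/+ liver. Over all tested probes the calls fell as well, from 3522 higher and 4719 lower to 2600 and 2523. Calls kept or lost with this covariate therefore do not bear on sex. The part of these cell types and of sex-biased regulation in the differences of the transferases was not tested.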

How the data were processed

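RNA of 7 livers was hybridised to Agilent 8x60K mouse arrays of 1 dye. The deposited intensity values are spot signals from which the authors had the background subtracted by Feature Extraction 10.7.3.1 (per the labels), not normalised between arrays. The deposited series matrix holds log2 values that correlate with quantile-normalised, probe-centred intensities at r of 0.9997 or more, across probes. Quality marks of 0 or 1 per spot are deposited too.

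Here, control probes and spots marked for non-uniformity or as outliers of their population were dropped, spots of a probe were averaged as log2, and each array was shifted by its 75th percentile. A probe was tested if every array of either genotype marked it as positive, significant and clear of background, with limma 3.58.1 in R 4.3.3 at an adjusted p of 0.1, after the false discovery rate of the study's methods. Probes clear of background made up 41.1% to 64.9% of an array, most in Rbpj +/+_1156 and Rbpj -/-_N3, and precision is limited by the number of arrays. The median intensity before scaling was 18.7 on the array of Rbpj +/+_1156, 29.6 on that of Rbpj -/-_N3 and 4.99 to 7.75 on the others. Permutation tests used scipy 1.17.1. The steps were tested on simulated data. Alternatives changed the background correction (normexp, offset 50), scaling, filter, removal of spots, variance model, threshold or probe of a gene, added the *Xist* signal to the model, used the series matrix, or dropped each animal.

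The members, gene lists and tests were chosen with earlier results of these data known. Named are *Rbpj*, every probe of the members, regulators and synthesis genes fixed by name, sex-linked genes and up to 4 called genes with the largest difference per list. Not every gene so covered is given a value, and *Gm3776*, *Gm10639* and *BC021614* were added after the data were seen. The build of the array's coordinates is not given in the sources used here, so probes are placed by chromosome alone.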

Additional observations from a re-analysis of the deposited data

Results flagged for a closer look

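For *BC021614* (*Gstp3* in RefSeq), Rbpj +/+_1156 stood apart from the other Rbpj+/+ livers, at 0.20 against 0.95 to 0.97. The gap to its nearest neighbour made up 0.974 of the range of the 4 animals. In the Rbpj+/+ group no member probe met this criterion, which chance alone meets in about 1 of 20 groups. Among the Rbpj-/- livers, Rbpj -/-_N3 stood apart on the *Gstm3* probe at position 1141, at 7.02 against 7.41 and 7.42.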

How the results depend on the processing

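The rise of *Gsta4* and *Gstm3* passed under all alternatives run, and that of *Gsta2* under all but the absence of a filter. In contrast, the calls of the pi genes and of *Gstm2* depended on the setting. Of 315 values of member probes under alternatives, 242 kept sign and side of the threshold, 42 lost the call, 24 gained it and 7 changed sign.

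Of the member probes, 5 were called higher as reported, 8 with normexp, quantile normalization, the percentile over probes detected on all arrays, array weights or the series matrix, and 3 without a filter. Lower were 4, but 1 with quantile normalization or the series matrix and 0 without a filter, where limma called 2038 of 55681 probes (8241 of 24548 as reported) and 9 pathway genes instead of 42. A threshold of 0.05 left 26 pathway genes. Member probes without overlap numbered 7 as reported, 11 with quantile normalization or the series matrix and 12 with the percentile over probes detected on all arrays. The share of all tested probes without overlap was counted only for the reported setting. Calls over all probes moved too, from 3522 higher and 4719 lower to 3873 and 3678 with quantile normalization. They were 3848 and 3616 in the series matrix, and 4316 and 4075 with the percentile over probes detected on all arrays. With normexp they were 4082 and 5901, with array weights 3970 and 6167, and without a filter 1190 and 848. Leaving out each animal gave 4673 to 9019 probes called (fewest without Rbpj -/-_N5), 4 to 8 member probes higher (most without Rbpj -/-_N3), 0 to 5 lower (0 without Rbpj +/+_1024 or Rbpj -/-_N3), and 22 to 42 pathway genes. Member probes without overlap then numbered 7 to 11. Leaving out an animal cannot make separated groups overlap, so this count could not fall below 7 and does not measure stability. The cause of these changes was not tested.

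Sign changes were those of *Gsta3* at position 901 (0.021 with quantile normalization, 0.026 in the series matrix), *Gstm1* at position 1225 (0.034 and 0.046 likewise) and at position 807 (-0.049 to 0.48 over the animals left out, lowest without Rbpj -/-_N5), *Gstm4* at position 1133 (0.072 with normexp, -0.49 to 0.26 over the animals left out, highest without Rbpj -/-_N3), *Gstcd* (-0.065 with normexp), *Nr1i2* (-0.27 with array weights, -0.25 to 0.25 over the animals left out), *Ddx3y* (-0.059 to 0.16 over the animals left out, lowest without Rbpj +/+_1156) and *Eif2s3y* (0.052 with normexp). All but *Gstcd* were uncalled. No paired analysis was possible because the genotypes share no animal numbers. Dim probes such as *Gstcd* and *Abcc1* are limited by their signal over background.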
